A study of Rattus norvegicus with 17 samples.

Results

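Transcript levels were followed for 8 components of the PI3K, AKT and mTOR pathway: the kinases that the drug NVP-BEZ235 inhibits or that act beside them (Pik3ca, Pik3cb, Akt1, Mtor), the regulatory and scaffold subunits Pik3r1 and Rictor, and the brakes Tsc1 and Tsc2. Each gene was taken from the probe set annotated with its symbol alone, and with the highest mean where several were. Of the 8, 6 had such a probe set, with 1 each, among 14506 genes in all: Pik3cb (probe set 10919453), Pik3r1 (10821050), Akt1 (10892316), Mtor (10873934), Tsc1 (10834837) and Tsc2 (10741143). Pik3ca and Rictor were not analysed here. No filter on low values was applied, so all 6 entered every test.

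The samples came from 8-month-old rats of the strain labelled Sprague-Dawley white eye/Wistar-Kyoto. All groups, controls included, carried the mutation labelled p27Kip1 (Cdknb1) mutant, which affects the cell cycle inhibitor p27. The sample labels call it homozygous and the series design heterozygous, so the zygosity is not settled. The 7 control samples (5 female, 2 male) were labelled with 20 mg/kg PEG, polyethylene glycol, and 10 samples received NVP-BEZ235, a dual inhibitor of PI3K and mTOR, with 4 females and 2 males at 20 mg/kg (6 samples) and 3 females and 1 male at 30 mg/kg (4 samples). How long the rats were treated is not in the labels, whose treatment protocol field names none. Nor do they state that each sample is a separate animal, so the spread behind every p-value is that between samples and may be technical. By the numbers in their titles, the samples at 30 mg/kg are 1 to 4, those at 20 mg/kg 5 to 10 and the controls 1 to 7, so dose and number set cannot be told apart. Changes are therefore also given within numbers 1 to 4 (4 controls, 4 at 30 mg/kg) and within numbers 5 to 10 (3 controls, 6 at 20 mg/kg).

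The tissue is labelled pituitary adenoma, while the series title names pheochromocytoma, and its leading markers were adrenal. Mean log2 values over the 17 arrays were 12.29 for Th and 12.32 for Dbh, enzymes of catecholamine synthesis, and 12.02 for Cyp11a1 and 12.11 for Star, which act in steroid synthesis, while growth hormone (Gh1) and the pituitary factor Pou1f1 lay at 3.86 and 3.32, below the median of every array. Prolactin (Prl) averaged 5.61 and reached 9.16 in 1 sample. Of the other pituitary markers, Tshb and Fshb lay below the array median on all 17 arrays, Cga on 16, Pomc on 14, Lhb on 11 and Pitx1 on 4. Array medians ranged from 4.95 to 5.11. Across genes, the median correlation with the arrays at 20 mg/kg was 0.983 for controls 5 to 7 and 0.966 for controls 1 to 4. With the 30 mg/kg arrays these medians were 0.947 and 0.955. Pik3cb averaged 6.45 ± 0.27 (SD, n = 3) in controls 5 to 7 and 6.21 ± 0.23 (n = 4) in controls 1 to 4. For Pik3r1 these means were 8.45 ± 0.34 and 8.49 ± 0.17. A fit with a term for sex cannot compare the 2 sets of controls, because controls 1 to 4 are all female and 6 and 7 male. The term absorbs the males, which leaves control 5 alone against controls 1 to 4. In that fit the largest differences among the members were 0.54 for Pik3cb and -0.44 for Pik3r1.

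Class I PI3K is a lipid kinase made of a catalytic subunit (Pik3ca, Pik3cb and their relatives) and a regulatory subunit (Pik3r1 and relatives), recruited by growth factor receptors. The lipid it makes draws AKT to the membrane, where PDK1 and mTOR complex 2, which holds Rictor, phosphorylate it. AKT in turn inhibits the TSC complex of Tsc1 and Tsc2, the brake on the GTPase RHEB and so on mTOR complex 1, which drives protein synthesis and restrains autophagy. When the pathway is blocked, FOXO factors enter the nucleus and raise transcripts of upstream receptors and adaptors, a feedback known from other tissues. All values here are transcript levels, and the activity of these kinases, which lies in their phosphorylation, was not measured.

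Levels are RMA values on a log2 scale, changes are log2 differences, and a change was called when its limma p-value, adjusted by the Benjamini-Hochberg method over all 14506 genes, was under 0.05. Brightness differs between probe sets, so levels are compared between samples and not between genes. In samples of whole tissue, fewer cells of a type and less RNA per cell cannot be told apart.

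Pik3r1 fell, and of the members it moved the most. It encodes the regulatory subunit that binds the catalytic subunits and couples them to activated receptors. Its control values ran from 8.05 to 8.69 with a median of 8.58, near the 88.9th percentile of an array. At 20 mg/kg they ran from 7.56 to 8.18 with a median of 8.02, and the 30 mg/kg samples 1 to 4 read 7.83, 8.02, 7.31 and 7.40. Every 30 mg/kg sample lay below the lowest control, 3 of the 6 at 20 mg/kg did, and all 10 treated samples lay below the control mean. The group means were 8.47 ± 0.23 (SD, n = 7) in controls, 7.96 ± 0.24 (n = 6) at 20 mg/kg and 7.64 ± 0.34 (n = 4) at 30 mg/kg, in that order.

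The change of Pik3r1 over both doses was -0.64 ± 0.14 (SE; limma adjusted p = 0.030), a level 0.641 times that of controls. At 30 mg/kg it was -0.84 ± 0.16 (adjusted p = 0.0050), 0.560 times the control level. At 20 mg/kg the change of -0.51 ± 0.14 did not pass (adjusted p = 0.084), and the next groups in the order, 20 and 30 mg/kg, did not differ beyond their spread (-0.33, 95% interval -0.68 to 0.03, adjusted p = 0.21). Both comparisons with control use the same 7 control samples. The value at 30 mg/kg kept its call when any 1 library was left out, between -0.96 and -0.72. Leaving out replicates 3 and 4 at 30 mg/kg together, the lowest of the group, gave -0.56 (adjusted p = 0.18), and female rats alone gave -0.68 (adjusted p = 0.083). Over both doses the change of Pik3r1 no longer passed without control replicate 1 (-0.63, adjusted p = 0.056), 4 (-0.62, 0.055), 6 (-0.61, 0.080) or 7 (-0.59, 0.091), without replicate 1 at 30 mg/kg (-0.64, 0.051) and without replicate 10 at 20 mg/kg (-0.61, 0.059). It was also lost in female rats alone (-0.49, 0.28). At 20 mg/kg the change passed without control replicate 5 (-0.58, adjusted p = 0.030).

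The RefSeq window around the annotated start of Pik3r1 (GRCr8, chr2:34697611-34697910, minus strand) is shown because this transcript carries the clearest change, beside that of Tsc1 (chr3:32367447-32367746, plus strand), the member that went the other way. Each window runs 5′ to 3′ from 250 bases before to 50 after the start. Capitals mark the GC box GGGCGG or, in Tsc1, the FOXO core GTAAACA, searched on both strands (on the minus strand they read CCGCCC and TGTTTAC).
Pik3r1: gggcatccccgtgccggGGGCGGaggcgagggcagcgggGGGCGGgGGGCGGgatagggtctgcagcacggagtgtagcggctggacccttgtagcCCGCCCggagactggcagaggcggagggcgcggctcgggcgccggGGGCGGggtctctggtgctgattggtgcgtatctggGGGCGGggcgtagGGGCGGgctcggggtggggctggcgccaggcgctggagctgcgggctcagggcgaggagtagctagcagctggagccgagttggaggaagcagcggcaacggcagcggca
Tsc1: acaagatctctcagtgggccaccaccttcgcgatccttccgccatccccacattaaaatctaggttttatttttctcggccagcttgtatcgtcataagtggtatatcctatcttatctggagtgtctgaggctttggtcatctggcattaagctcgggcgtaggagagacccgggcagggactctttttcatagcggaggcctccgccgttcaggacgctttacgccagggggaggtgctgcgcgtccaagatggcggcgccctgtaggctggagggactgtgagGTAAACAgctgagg
The Pik3r1 window held 7 GC boxes and no FOXO core, with a GC content of 75.3%. The Tsc1 window held 1 FOXO core, 36 bases after the start, and no GC box, with a GC content of 55%. Neither held the E-box CACGTG, and no match of a motif overlapped one of another. Of the other measured members, the Mtor window held 4 GC boxes, that of Tsc2 1 and that of Akt1 0, with 0 FOXO cores in each. Pik3cb had no window in the reference used. Of 33469 rat windows of this length, 33.1% held a GC box, 3.78% the FOXO core and 6.42% the E-box, and the median GC content was 51.7%. These matches describe letters in a window; binding was not measured.

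**Figure D1:**
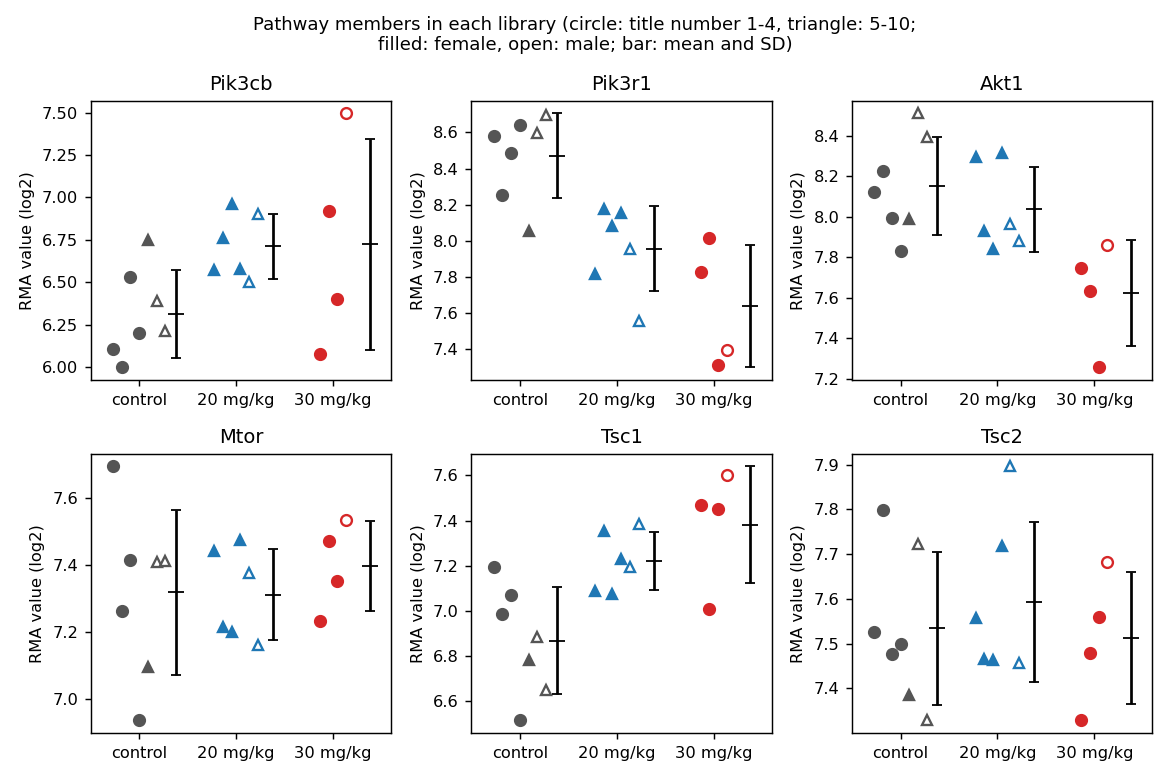
RMA value (log2, vertical axis) of the 6 measured members in every library, by control, 20 mg/kg and 30 mg/kg. Circles are title numbers 1 to 4, triangles 5 to 10, filled symbols female and open symbols male rats, and bars the group mean and SD. For Pik3r1 every 30 mg/kg library sits below the lowest control, while for Mtor and Tsc2 the groups overlap throughout.

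Pik3cb, the catalytic subunit that can also be engaged by G protein-coupled receptors, did not pass in any comparison. Control values ran from 5.998 to 6.747 with a median of 6.21, and those at 20 mg/kg from 6.50 to 6.96 with a median of 6.67. The 30 mg/kg samples 1 to 4 read 6.08, 6.92, 6.40 and 7.50, a spread wider than that of either other group (SD 0.62, against 0.26 in controls and 0.19 at 20 mg/kg). The change was 0.40 ± 0.16 over both doses (adjusted p = 0.24), 0.39 ± 0.18 at 20 mg/kg (adjusted p = 0.28) and 0.42 ± 0.20 at 30 mg/kg (adjusted p = 0.22). Of the 10 treated samples, 5 lay above the highest control and 9 above the control mean. Without 1 library the change at 30 mg/kg ranged from 0.15 to 0.62.

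Akt1, the kinase that carries the PI3K signal to TSC, FOXO and glucose metabolism, fell at 30 mg/kg. Control values ran from 7.83 to 8.51 with a median of 8.12, and those at 20 mg/kg from 7.84 to 8.31 with a median of 7.95. The 30 mg/kg samples 1 to 4 read 7.75, 7.64, 7.26 and 7.86. Of these, 3 lay below the lowest control and the other sample, replicate 4, just above it, while all 6 samples at 20 mg/kg lay within the control range. The means were 8.15 ± 0.24 (SD, n = 7), 8.04 ± 0.21 (n = 6) and 7.62 ± 0.26 (n = 4) in controls, at 20 and at 30 mg/kg.

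The change of Akt1 was -0.52 ± 0.14 at 30 mg/kg (limma adjusted p = 0.031), 0.696 times the control level. It was -0.12 ± 0.13 at 20 mg/kg (adjusted p = 0.66) and -0.28 ± 0.13 over both doses (adjusted p = 0.34). The direct difference of 30 from 20 mg/kg, -0.40 ± 0.15, did not pass (95% interval -0.71 to -0.09, adjusted p = 0.084), so the doses are not shown to differ. Omitting control replicate 6 (-0.48, adjusted p = 0.063) or 7 (-0.50, 0.062), both males with the highest control values, ended the call at 30 mg/kg. It was also lost without replicate 3 (-0.41, 0.12) or 4 (-0.57, 0.072) at 30 mg/kg, in female rats alone (-0.49, 0.16) and without both replicates 3 and 4 (-0.42, 0.29).

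Mtor, the kinase shared by both mTOR complexes and a direct target of the drug, did not pass in any comparison. Control values ran from 6.94 to 7.70 with a median of 7.41, those at 20 mg/kg from 7.16 to 7.47 with a median of 7.295, and the 30 mg/kg samples 1 to 4 read 7.23, 7.47, 7.35 and 7.53. No treated sample lay outside the control range. The change was 0.03 over both doses (95% interval -0.19 to 0.24, adjusted p = 0.95), -0.01 at 20 mg/kg (-0.25 to 0.23) and 0.08 at 30 mg/kg (-0.19 to 0.35). With quantile normalization the value over both doses was -0.01, so it has no direction.

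Tsc1, which stabilises its partner Tsc2 in the TSC complex, rose at 30 mg/kg. Control values ran from 6.52 to 7.19 with a median of 6.88, and those at 20 mg/kg from 7.08 to 7.38 with a median of 7.21. The 30 mg/kg samples 1 to 4 read 7.47, 7.01, 7.45 and 7.60. All 10 treated samples lay above the control mean and 7 above the highest control, 4 of the 6 at 20 mg/kg and 3 of the 4 at 30 mg/kg. The means were 6.87 ± 0.24 (SD, n = 7), 7.22 ± 0.13 (n = 6) and 7.38 ± 0.26 (n = 4), in the order control, 20 and 30 mg/kg.

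The change of Tsc1 was 0.52 ± 0.14 at 30 mg/kg (limma adjusted p = 0.028), 1.43 times the control level. At 20 mg/kg it was 0.35 ± 0.12 (adjusted p = 0.15) and over both doses 0.42 ± 0.11 (adjusted p = 0.071), neither past the threshold. The doses differed by 0.16 (95% interval -0.14 to 0.47, adjusted p = 0.47). This call ended on omission of control replicate 6 (0.51, adjusted p = 0.052) or 7 (0.47, 0.060), or of replicate 1 (0.48, 0.057), 3 (0.49, 0.080) or 4 (0.43, 0.15) at 30 mg/kg. It was lost too in female rats alone (0.40, 0.29), with trended and robust variances (0.52, 0.050) and without both replicates 3 and 4 (0.36, 0.39).

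Tsc2, the subunit of that complex which switches RHEB off, did not pass in any comparison. Control values ran from 7.33 to 7.80 with a median of 7.50, those at 20 mg/kg from 7.46 to 7.90 with a median of 7.511, and the 30 mg/kg samples 1 to 4 read 7.33, 7.48, 7.56 and 7.68. The groups overlap, and 1 treated sample exceeded the highest control. The change was 0.03 over both doses (95% interval -0.17 to 0.22, adjusted p = 0.94), 0.05 at 20 mg/kg (-0.16 to 0.27) and -0.02 at 30 mg/kg (-0.26 to 0.23). Its sign over both doses turned with quantile normalization (-0.02).

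Counted together, 1 of the 6 members was called lower over both doses and 0 higher, where 0.965% and 0.517% of all genes were called lower and higher. No member was called at 20 mg/kg (0 of 6), against 0.524% lower and 0.655% higher of all genes. At 30 mg/kg 2 were called lower and 1 higher, against 4.89% and 3.66% of all genes. Between 30 and 20 mg/kg 0 members were called, against 8.16% lower and 3.92% higher. With 6 genes these counts describe the members and carry no test of their own. The split of all genes called moved with the scaling: it was 75 higher and 140 lower over both doses and 83 and 101 with median centring. At 20 mg/kg it was 95 and 76, against 38 and 65 with quantile normalization and 195 and 73 with median centring. Between the doses it was 569 and 1183, against 606 and 765 with quantile normalization and 366 and 1440 with median centring. The called members kept their calls under both scalings.

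**Figure D2:**
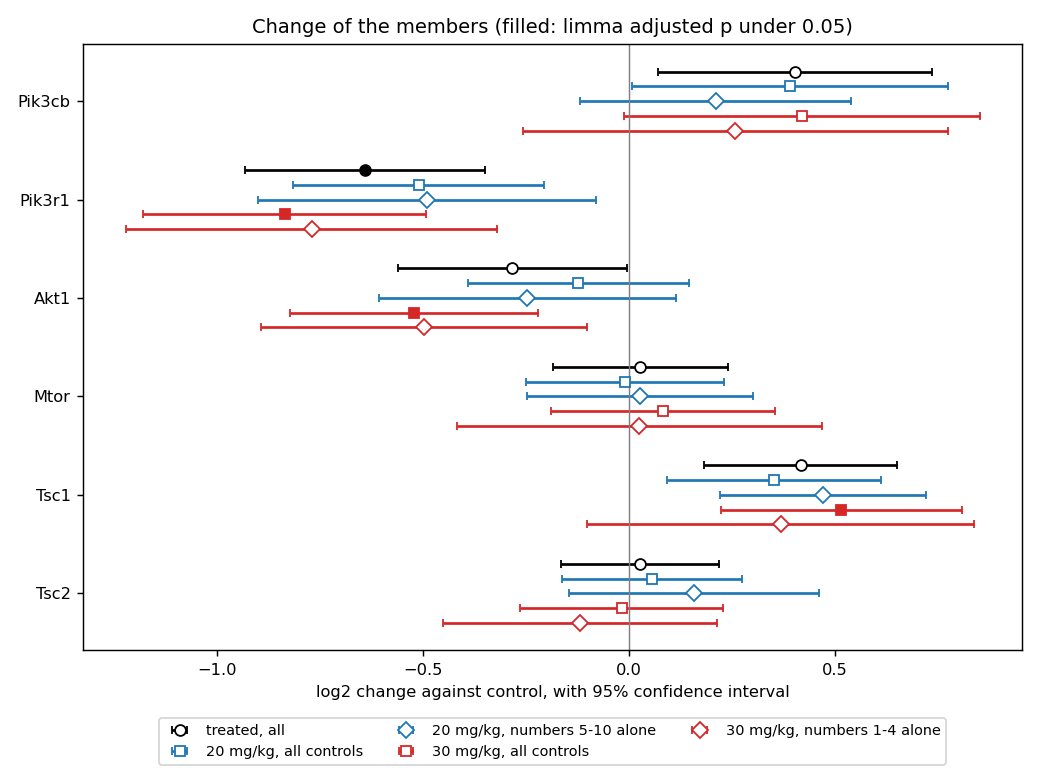
Change of each measured member against control on the log2 scale (horizontal axis), with the 95% confidence interval, for both doses together, each dose against all controls, and each dose within its own title numbers. Filled symbols have a limma adjusted p under 0.05; Pik3r1 is filled over both doses and at 30 mg/kg, Akt1 and Tsc1 at 30 mg/kg only.

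Against the controls of their own title numbers the members kept the direction of the called changes, but none passed. Within numbers 1 to 4 the change at 30 mg/kg was -0.77 for Pik3r1 (limma adjusted p = 0.24), -0.50 for Akt1 (0.40) and 0.37 for Tsc1 (0.65). In that fit replicate 4 at 30 mg/kg, a male among females, is absorbed by the term for sex, so it compares 4 controls with 3 treated samples, and 0.0827% of all genes were called lower and 0.0276% higher. Within numbers 5 to 10 the change at 20 mg/kg was -0.49 for Pik3r1 (0.22), -0.25 for Akt1 (0.50) and 0.47 for Tsc1 (0.077), where 0.979% of all genes were called lower and 0.214% higher. Tsc1 thus had its larger value at 20 mg/kg here and at 30 mg/kg against all controls.

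The difference between these changes, 30 mg/kg within numbers 1 to 4 minus 20 mg/kg within numbers 5 to 10, fitted jointly with 1 term for sex, was -0.31 for Pik3r1 (95% interval -0.90 to 0.28, limma adjusted p = 0.87). It was -0.23 for Akt1 (-0.73 to 0.28) and -0.08 for Tsc1 (-0.56 to 0.39). No member was called, and of all genes 0% were by limma, with 971 at an unadjusted p under 0.05. With the number set as a term, Tsc1 passed over both doses (0.45, adjusted p = 0.020), while at 30 mg/kg Akt1 (-0.45, adjusted p = 0.15) and Tsc1 (0.41, adjusted p = 0.16) no longer did.

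Male and female rats were not shown to differ in the response of any member. The male controls were numbers 6 and 7, and the treated males number 4 at 30 mg/kg and numbers 9 and 10 at 20 mg/kg. Sex is thus mixed with number set, and the comparison rests on 2 male controls. The change in males minus that in females was -0.52 for Pik3r1 (95% interval -1.12 to 0.09, limma adjusted p = 0.74), -0.38 for Akt1 (-0.98 to 0.22, 0.78), 0.37 for Pik3cb (-0.36 to 1.11, 0.81) and 0.30 for Tsc1 (-0.21 to 0.81, 0.79). Of all genes 0.00689% were called. Pik3r1 averaged 8.40 ± 0.24 (SD, n = 5) in female and 8.64 ± 0.07 (n = 2) in male controls, and 7.91 ± 0.30 (n = 7) and 7.64 ± 0.29 (n = 3) in treated females and males.

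**Figure D3:**
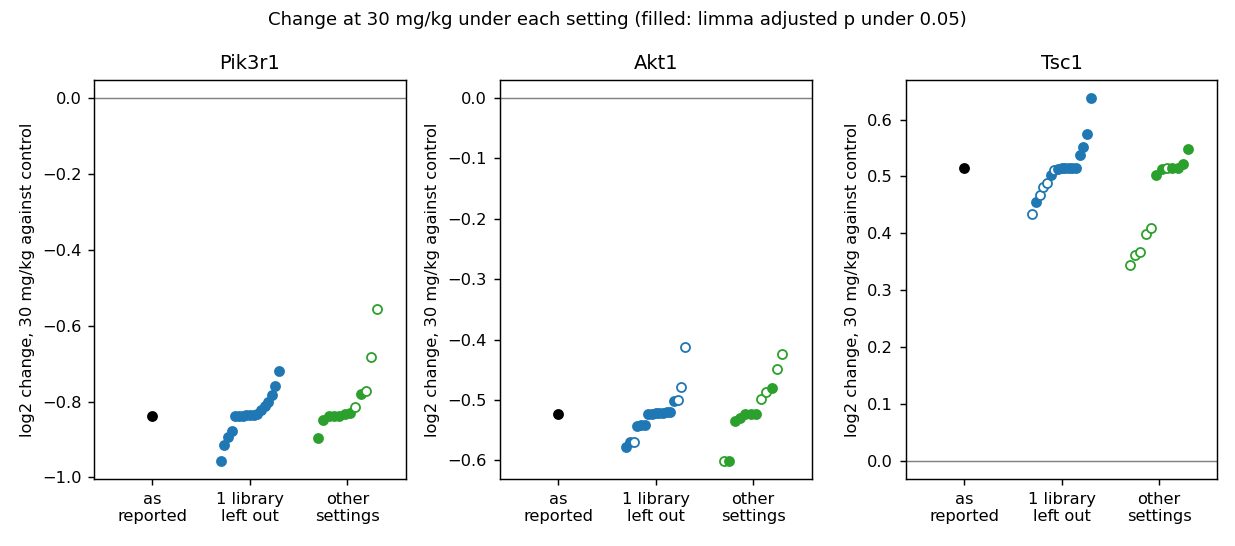
Change at 30 mg/kg against control (log2, vertical axis) for Pik3r1, Akt1 and Tsc1 as reported, with 1 library left out, and under the other settings. Filled points have a limma adjusted p under 0.05. No point crosses 0, and of the 17 omissions of 1 library Pik3r1 kept its call in 17, Akt1 in 13 and Tsc1 in 12.

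Across the 17 arrays Pik3r1 ran against Tsc1 (r = -0.75) and with Akt1 (r = 0.61), and against Pik3cb (r = -0.54). These values describe arrays that share the treatment difference. Among the 7 controls alone the same pairs had r = -0.17, 0.27 and -0.45, and among the 10 treated samples -0.65, 0.52 and -0.17. Mtor and Tsc1 had r = 0.76 in the controls and -0.09 in the treated samples.

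The genes whose levels were most like those of Pik3r1 over the 17 arrays, by Pearson r, were Cd74 (0.89), the invariant chain of class II antigen presentation, RT1-Ba (0.88), a class II chain, Mx2 (0.88), an interferon-induced GTPase, Lgals3bp (0.86) and Serpinb9 (0.86), a granzyme inhibitor. The most opposite were Sv2c (-0.87), a synaptic vesicle protein, Fcgr2b (-0.86), an inhibitory Fc receptor, and Tent5a (-0.86). These genes were picked by r over the same 17 arrays, so r within a part of those arrays is not independent of the choice. The treated samples also mix both doses and number sets. Within the treated samples alone these r ranged in size from 0.74 (Tent5a, -0.74) to 0.88 (Fcgr2b, -0.88). Within controls they ran from 0.09 (Serpinb9) to 0.72 (Cd74) for the first 5, and read -0.42, 0.04 and -0.85 for the other 3. Cd74 fell by 2.19 on the log2 scale at 30 mg/kg (limma adjusted p = 0.00060).

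Markers of immune and vascular cells also moved at 30 mg/kg, where 3.66% of all genes were called higher and 4.89% lower. The summed linear level of the 12 macrophage markers ran from 5163 to 6912 in controls, 3169 to 5613 at 20 mg/kg and 2544 to 4384 at 30 mg/kg, where 4 of the 12 were called lower (Csf1r, Aif1, C1qa and Cd74). Such a sum weighs bright genes most, among them Cd74, which changed by -2.19 on the log2 scale. The mean log2 level of the 12 ran from 7.47 to 7.86, 7.21 to 7.84 and 6.67 to 7.53, so the groups overlapped. For the 9 measured lymphocyte markers the ranges of the linear sum were 273 to 409, 221 to 278 and 185 to 214, with 4 called lower at 30 mg/kg (Cd3d, Cd2, Cd4 and Ptprc), while Cd3e, Cd2 and Lck lay below the array median on all 17 arrays. The linear sum of the 11 measured endothelial markers was 1706 to 2872 in controls, 2179 to 2633 at 20 mg/kg and 3233 to 3876 at 30 mg/kg. Of the 11, 4 were called higher at 30 mg/kg (Cdh5, Flt1, Emcn and Eng). The control sets differed in this sum, at 1977 to 2872 in numbers 1 to 4 and 1706 to 1972 in numbers 5 to 7. The linear sum of the 3 measured erythroid markers ran from 1048 to 3631, 272 to 1049 and 117 to 846, and 2 of them, Hbb and Hba-a3, were called lower at 30 mg/kg. In mean log2 level the erythroid controls (7.12 to 8.83) overlapped the 30 mg/kg samples (5.20 to 7.24). The lymphocyte ranges (4.76 to 5.19 against 4.30 to 4.43) and the endothelial ranges (6.88 to 7.51 against 7.57 to 7.83) did not overlap. Of the fibroblast and pericyte list, 2 of 10 were lower and 1 higher at 30 mg/kg. Of the 7 chromaffin markers 1 was lower (Ddc), and of the 9 adrenal cortex markers 0 were called. RMA values have no 0, so no marker was at 0. The part of these shifts in the changes of Pik3r1, Akt1 and Tsc1 was not tested.

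A wider list of 99 pathway genes, of which 80 were measured, gives the setting of the members. It was chosen with earlier results of these data known. Over both doses 0 of the 80 were called higher and 2 lower, Pik3r1 and Grb10, and at 20 mg/kg 0 were called. At 30 mg/kg 6 were higher and 8 lower, among them the 3 members. Of all genes 3.66% were higher and 4.89% lower there, shares to set beside each count by role below. The 74 genes other than the members had 5 higher and 6 lower at 30 mg/kg, 14.9% against 8.55% of all genes, and their median change was 0.10 against 0.01 over all genes. The medians at 20 mg/kg were 0.10 and -0.01.

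**Figure D4:**
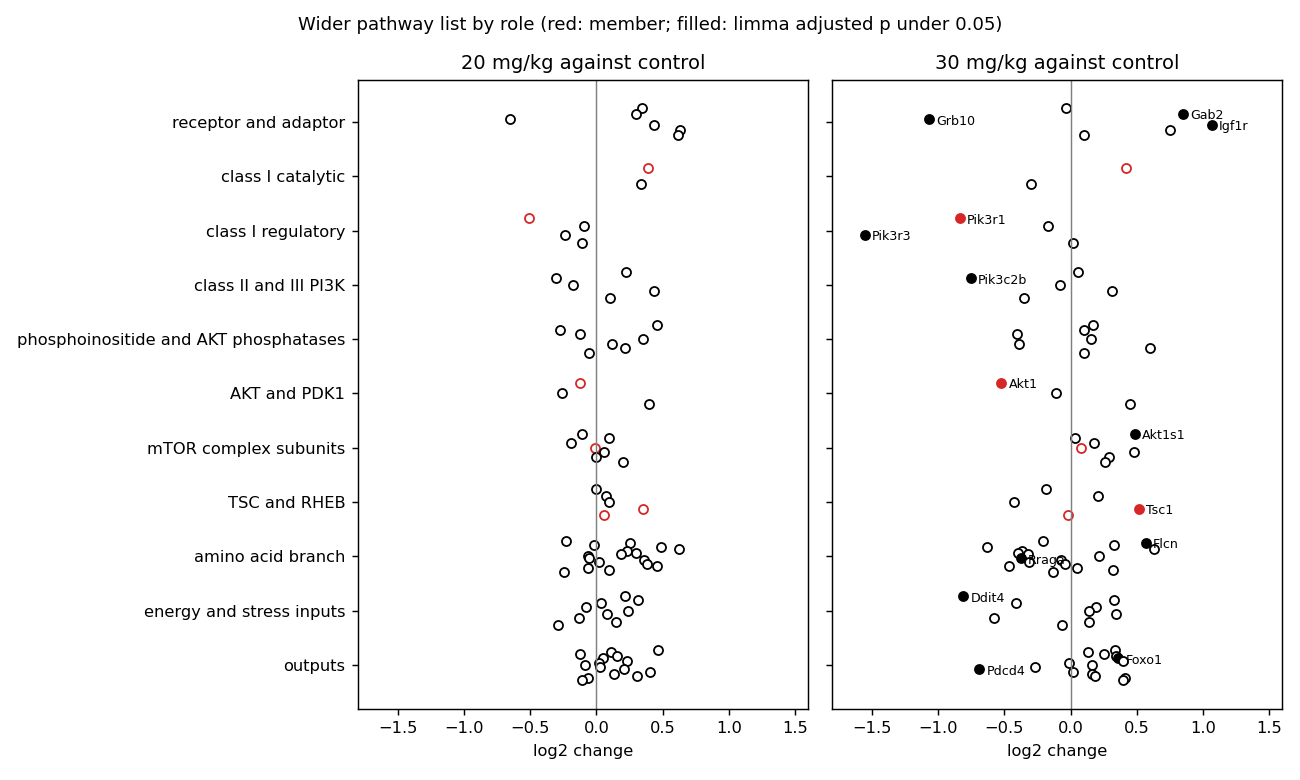
Change against control (log2, horizontal axis) of the 80 measured genes of the wider list, grouped by role, at 20 mg/kg (left) and 30 mg/kg (right). Red marks the members and filled points have a limma adjusted p under 0.05: none at 20 mg/kg, and at 30 mg/kg 14 genes, which carry their names.

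Upstream of PI3K, 2 of the 6 receptors and adaptors rose and 1 fell at 30 mg/kg, where 3.66% of all genes were called higher and 4.89% lower. Igf1r, the receptor of insulin-like growth factor, averaged 7.83 ± 0.35 (SD, n = 7) in controls, 8.28 ± 0.34 (n = 6) at 20 mg/kg and 8.88 ± 0.75 (n = 4) at 30 mg/kg, a change of 1.07 ± 0.24 (SE; limma adjusted p = 0.013). The docking protein Gab2, a scaffold that recruits PI3K to receptors, changed by 0.85 ± 0.25 (adjusted p = 0.044). Grb10, an adaptor that restrains the insulin and IGF receptors and is itself phosphorylated by mTOR complex 1, changed by -1.07 ± 0.24 (SE), from 9.02 ± 0.44 (SD, n = 7) to 7.97 ± 0.40 (n = 4), with an adjusted p of 0.012. Over both doses Grb10 fell by 0.82 (adjusted p = 0.048), a call that ended without any of control replicates 1, 2, 3, 5, 6 and 7, any sample at 30 mg/kg, or replicate 6, 7, 9 or 10 at 20 mg/kg, with values between -0.87 and -0.73. At 30 mg/kg Grb10 kept its call in all 17 omissions of 1 library. Igf1r lost it without replicate 3 (0.83, adjusted p = 0.054) or 4 (0.89, 0.088) there.

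Among the PI3K subunits the changes called at 30 mg/kg were all decreases. Pik3r3, another class I regulatory subunit, went from 7.92 ± 0.57 (SD, n = 7) in controls to 6.35 ± 0.66 (n = 4), the largest change of the wider list. It fell by 1.55 ± 0.29 on the log2 scale (limma adjusted p = 0.0037). Its mean was 7.70 ± 0.34 (n = 6) at 20 mg/kg, and the difference of 30 from 20 mg/kg was -1.32 ± 0.30 (adjusted p = 0.012). The control sets of Pik3r3 differed in the same direction, at 7.60 ± 0.58 (n = 4) in numbers 1 to 4 and 8.33 ± 0.16 (n = 3) in numbers 5 to 7. With each dose against the controls of its own numbers the dose difference was -0.72 and did not pass (limma adjusted p = 0.80). With Pik3r1, then, 2 of the 4 measured regulatory subunits fell at 30 mg/kg, and Pik3r2 (-0.17, adjusted p = 0.47) did not pass. The class II kinase Pik3c2b fell by 0.75 (adjusted p = 0.028), while Pik3c3, the class III kinase of autophagy, read 0.31 (adjusted p = 0.35). Pik3cd, the catalytic subunit known from leukocytes, read 0.34 at 20 mg/kg and -0.30 at 30 mg/kg, neither past the threshold, and the doses differed by -0.64 ± 0.13 (adjusted p = 0.0083). Pik3r3 kept its 30 mg/kg call in all 17 omissions of 1 library. Pik3c2b lost it without control replicate 7 (-0.70, 0.058) and without replicate 3 (-0.72, 0.075) or 4 (-0.65, 0.14) at 30 mg/kg.

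None of the 7 measured phosphatases that oppose PI3K and AKT was called in these 4 comparisons. Inpp4a had the smallest p over both doses (0.35, limma adjusted p = 0.19; 0.46 at 20 mg/kg, adjusted p = 0.084) and passed without replicate 3 at 30 mg/kg (0.43, adjusted p = 0.035). Phlpp1, an AKT phosphatase, read 0.60 at 30 mg/kg (adjusted p = 0.10). Of the 3 measured kinases of the AKT step Akt1 alone was called. Akt2 read -0.11 at 30 mg/kg (adjusted p = 0.68), and Pdpk1, the gene of PDK1, 0.45 at 30 mg/kg (adjusted p = 0.061) and 0.42 over both doses (adjusted p = 0.070). Pdpk1 passed with quantile normalization (0.50 at 30 mg/kg, adjusted p = 0.030).

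Of the 7 measured subunits of the mTOR complexes, 1 rose at 30 mg/kg. Akt1s1, the gene of PRAS40, a subunit of complex 1 that AKT phosphorylates, averaged 6.95 ± 0.29 (SD, n = 7) in controls, 6.86 ± 0.11 (n = 6) at 20 mg/kg and 7.43 ± 0.24 (n = 4) at 30 mg/kg. Its change at 30 mg/kg was 0.48 ± 0.13 (SE; limma adjusted p = 0.033), and it exceeded the 20 mg/kg group by 0.59 ± 0.14 (adjusted p = 0.014). Prr5, a subunit of complex 2, read 0.48 at 30 mg/kg (adjusted p = 0.061), and Tti1, which helps to assemble mTOR, 0.26 (adjusted p = 0.56). Of the 5 genes of the TSC and RHEB step Tsc1 alone was called. Rheb, the GTPase that TSC switches off, read -0.19 (adjusted p = 0.31) and Rhebl1 0.21 (adjusted p = 0.55) at 30 mg/kg.

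The amino acid branch, which brings mTOR complex 1 to the lysosome through the RAG GTPases, had 1 gene higher and 1 lower of 17 at 30 mg/kg. Flcn, folliculin, which acts on the RAG GTPases and on TFE3 and TFEB, rose by 0.57 ± 0.13 (SE; limma adjusted p = 0.012), and Rraga, the gene of RagA, fell by 0.38 ± 0.11 (adjusted p = 0.037). Between the doses 4 of the 17 were lower and 1 higher at 30 mg/kg, where 8.16% of all genes were lower and 3.92% higher. The lower genes were Lamtor2 (-1.12, adjusted p = 0.015) and Lamtor4 (-0.60, 0.038) of the lysosomal anchor Ragulator, Nprl2 (-0.50, 0.049) of the GATOR1 complex and the leucine sensor family gene Sesn1 (-0.92, 0.020). The higher gene was Lamtor1 (0.35, 0.038). Lamtor2 averaged 10.45 ± 0.05 (SD, n = 3) in controls 5 to 7 and 10.39 ± 0.10 (n = 6) at 20 mg/kg, against 9.48 ± 0.37 (n = 4) in controls 1 to 4 and 9.26 ± 0.44 (n = 4) at 30 mg/kg, so its dose difference follows the title numbers in the controls too. Sesn1 stood at 7.06 ± 0.27 in controls 1 to 4 and 7.49 ± 0.08 in controls 5 to 7, a gap in the same direction as its dose difference. Lamtor3 read 0.63 over both doses (adjusted p = 0.062), but 1.06 within numbers 1 to 4 (adjusted p = 0.18) and 0.21 within numbers 5 to 10 (adjusted p = 0.31), with controls at 6.80 ± 0.31 and 7.67 ± 0.03.

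Of the 9 measured energy and stress inputs, 1 fell at 30 mg/kg. Ddit4, the stress-induced inhibitor of mTOR complex 1 also called REDD1, stood at 6.76 ± 0.44 (SD, n = 7) in controls, 6.96 ± 0.17 (n = 6) at 20 mg/kg and 5.96 ± 0.59 (n = 4) at 30 mg/kg. Its change was -0.81 ± 0.24 (SE; limma adjusted p = 0.042) and the dose difference -1.02 ± 0.24 (adjusted p = 0.015). Prkaa1, a catalytic subunit of AMPK, read 0.33 (adjusted p = 0.26) and Trib3, a stress-induced pseudokinase that binds AKT, -0.06 (adjusted p = 0.84).

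Of the 15 measured outputs, 1 rose and 1 fell at 30 mg/kg. Foxo1, the transcription factor that AKT keeps out of the nucleus, went from 7.32 ± 0.12 (SD, n = 7) to 7.69 ± 0.12 (n = 4), a change of 0.36 ± 0.10 (SE; limma adjusted p = 0.035), and no 30 mg/kg sample lay below the highest control of 7.53. Pdcd4, a translation inhibitor that S6 kinase sends for degradation, changed by -0.69 ± 0.20 (SE; adjusted p = 0.036) and differed between the doses by -0.90 ± 0.20 (adjusted p = 0.012). Its controls stood at 8.79 ± 0.30 (SD, n = 4) in numbers 1 to 4 and 9.24 ± 0.18 (n = 3) in numbers 5 to 7, and within numbers 1 to 4 its change at 30 mg/kg was -0.41 (adjusted p = 0.71). Rps6, the ribosomal protein that S6 kinase phosphorylates, was lower at 30 than at 20 mg/kg (-0.39, adjusted p = 0.048). Its control sets differed likewise, at 12.00 ± 0.05 (n = 3) in numbers 5 to 7 and 11.58 ± 0.15 (n = 4) in numbers 1 to 4. Eif4b, a translation factor, read 0.41 over both doses (adjusted p = 0.054).

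Several of the other calls in the wider list were lost when any 1 of several libraries was left out. Over the 17 omissions of 1 library at 30 mg/kg, the count called in the list ran from 4 (without replicate 4 there) to 16. Gab2 kept its call in 5, Akt1s1 in 12, Rraga in 9, Flcn in 16, Ddit4 in 6, Foxo1 in 10 and Pdcd4 in 10 of the 17. Gab2 lost it without controls 2 and 4 to 7, replicates 1, 3 or 4 at 30 mg/kg and replicates 6 to 9 at 20 mg/kg (0.72 to 1.12 over the 17), and Akt1s1 without controls 2 or 7 and replicates 1, 3 or 4 at 30 mg/kg (0.41 to 0.56). Rraga lost it without controls 4 to 7 or any sample at 30 mg/kg (-0.43 to -0.32), and Flcn without replicate 4 (0.56, adjusted p = 0.050). Ddit4 lost it without controls 2 to 5, replicates 1, 3 or 4 at 30 mg/kg and replicates 6 to 9 at 20 mg/kg (-1.02 to -0.54). Foxo1 lost it without controls 2, 5 or 6 or any sample at 30 mg/kg (0.32 to 0.39), and Pdcd4 without controls 4 to 7 and replicates 2 to 4 at 30 mg/kg (-0.94 to -0.49). None of these values turned direction. Median centring ended the calls of Gab2 (0.84, adjusted p = 0.059) and Foxo1 (0.35, 0.052), and quantile normalization those of Rraga (-0.31, 0.054), Ddit4 (-0.81, 0.055) and Pdcd4 (-0.63, 0.054). With replicates 3 and 4 at 30 mg/kg both left out, 0 of the 80 were called at 30 mg/kg.

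Of the 11 genes of the list called between 30 and 20 mg/kg, 2 were higher (Akt1s1 and Lamtor1) and 9 lower. Without the members, of which none was called, that is 14.9% of 74 genes, where 12.1% of all genes were called, 569 higher and 1183 lower. With each dose against the controls of its own numbers, none of the 11 differences passed. Lamtor2 (0.02) and Rps6 (0.01) then read close to 0, and Pik3r3 (-0.72), Pdcd4 (-0.54), Sesn1 (-0.34), Lamtor4 (-0.26), Akt1s1 (0.28) and Lamtor1 (0.15) were smaller by over 1.5 times. Pik3cd (-0.60) and Nprl2 (-0.56) kept about their size, and Ddit4 read -1.44. Pik3cd and Ddit4 kept that call in all 17 omissions of 1 library. Without replicate 4 at 30 mg/kg alone it was lost by Pik3r3 (-1.25, limma adjusted p = 0.066), Akt1s1 (0.56, 0.072), Lamtor2 (-0.84, 0.10) and Pdcd4 (-0.70, 0.082). Sesn1 lost it without replicate 3 (-0.76, 0.065) or 4 (-0.74, 0.12) at 30 mg/kg or replicate 8 at 20 mg/kg (-0.87, 0.051). Lamtor1 lost it without any sample at 30 mg/kg or replicates 6 to 8 at 20 mg/kg and with median centring (0.28, 0.082). Lamtor4 lost it without replicates 1, 2 or 4 at 30 mg/kg or 5 to 9 at 20 mg/kg and with quantile normalization (-0.49, 0.070). Nprl2 lost it without controls 2 and 4 to 7, replicates 2 to 4 at 30 mg/kg or 5 to 9 at 20 mg/kg, and Rps6 without controls 2, 6 or 7, replicates 1, 2 or 4 at 30 mg/kg or any sample at 20 mg/kg. With quantile normalization these 2 read -0.41 (adjusted p = 0.12) and -0.27 (0.14).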

How the data were processed

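Gene expression was measured on 17 Affymetrix arrays. The total RNA had been amplified over the whole transcriptome and given a biotin label, according to the labels' protocols. The deposited values are RMA values on a log2 scale, from 2.22 to 13.7, made by the authors with Affymetrix Expression Console 1.3.0.187, per the submitters' processing notes, and were used as deposited. RMA compresses differences of dim probe sets. Of 29214 probe sets, 15310 had 1 gene symbol, 323 several and 13581 none listed, which left 14506 genes with 1 probe set each, the one of highest mean. By gene identifier 14480 matched the reference table, with 0 symbols changed. The build of the probe annotation is not given in the sources used here, so gene coordinates other than those of the RefSeq windows (GRCr8) are not given.

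Two-sided moderated tests came from lmFit and eBayes of limma 3.58.1, run in R 4.3.3, with Benjamini-Hochberg adjustment over 14506 genes and a threshold of 0.05. Both doses against control were fitted with treatment and sex as terms, and the doses in 1 fit of 3 groups with sex. Products of treatment with title-number set and with sex tested differences in the change. The script was tested on simulated data. The highest r between any 2 arrays was 0.993, and none were identical. Their number limits the precision.

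The members and lists were chosen with earlier results of these data known. Genes named beyond the members were those of the wider list past the threshold in 1 of the 4 comparisons, the 2 others of each role with the smallest p over both doses, and the 5 most and 3 least like Pik3r1 by Pearson r. Lists of chromaffin, adrenal cortex, pituitary, endothelial, fibroblast and pericyte, macrophage, lymphocyte and erythroid markers were counted and summed as linear levels. Alternatives were fits without sex, in female rats alone, with array weights, with trended and robust variances, with quantile normalization or median centring, with the mean of probe sets, above the median level, with a replicate block or the number set as a term, within each set, and without each library. Leaving out replicates 3 and 4 at 30 mg/kg together was chosen after the data were seen.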

Additional observations from a re-analysis of the deposited data

Results flagged for a closer look

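No member had a library that stood apart from the rest of its group. Among the other named pathway genes, 8 of the 114 gene groups tested, members included, held a highest or lowest library separated from its group by a wide gap, where chance gives about 1 in 20. In control replicate 1 Pik3r3 was lowest at 6.751 (next 7.725) and Trib3 highest at 5.664 (next 5.252). In control replicate 4 Eif4b was lowest at 9.521 (next 9.932). In replicate 10 at 20 mg/kg, Lamtor4 was lowest at 9.556 (next 9.912), Akt2 lowest at 8.004 (next 8.352) and Rhebl1 highest at 5.007 (next 4.61). At 30 mg/kg Inpp4a was lowest in replicate 3 at 5.944 (next 6.715) and Eif4b lowest in replicate 2 at 9.947 (next 10.406).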

How the results depend on the processing

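The number of calls moved with the setting more than the direction of the members did: of 900 values of members under other settings, 811 kept direction and side of the threshold, 33 lost a call, 3 gained one, 53 changed sign without being called in either, and 0 reversed. Most of the 900 belong to results that were not called and so had no call to lose. Pik3r1 over both doses kept its call in 10 of 13 other settings and 11 of 17 omissions of 1 library. At 30 mg/kg Pik3r1 kept it in 8 of 12 and 17 of 17. Akt1 kept it there in 7 of 12 and 13 of 17, and Tsc1 in 6 of 12 and 12 of 17. For treated versus control, 215 genes were called. The count was 100 with no term for sex, 424 with array weights, 12 among females only, 138 among genes above the median level, 16 within numbers 1 to 4 and 712 with the number set as a term. The members called (1) were 0 in female rats alone, 0 within either number set and 2 with the set as a term. The wider list genes called (2) were 1 without sex, with median centring or with the block, 4 with array weights, 9 with the set as a term, and 0 in female rats alone or within either set. For 20 mg/kg versus control, 171 genes were called, and 55 without sex, 2 in female rats alone, 577 with array weights, 103 with quantile normalization, 268 with median centring and 52 with the set as a term. Array weights called 1 member and 5 of the wider list, median centring 3 of the list and trended variances 1, against 0. For 30 mg/kg versus control, 1240 genes were called, and 251 in female rats alone, 437 with the set as a term, 16 within numbers 1 to 4 and 155 without replicates 3 and 4 at 30 mg/kg. The 3 members called were then 0, 1, 0 and 0, and the 14 of the wider list 1, 4, 0 and 0, with 9 under array weights. For 30 mg/kg versus 20 mg/kg, 1752 genes were called, 405 in female rats alone and 51 without those replicates, with 0 of the 11 list genes in both. For treatment by sex, 1 gene was called, and 0 with the set as a term. The causes were not tested.

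The title numbers were not shown to pair the samples: of 7 pairs, 0 had deviations that correlated above 0.1 (r from -0.18 to 0.08) and 1 sample correlated best with its own number. The deviations were from group means, without terms for sex or number set, so they cannot exclude a pairing. With the replicate block, treated versus control called 231 genes, 20 mg/kg versus control 0, 30 mg/kg versus control 72, with 0 members and 1 of the list, and 30 mg/kg versus 20 mg/kg 0, with 0 of the list. Under it Lamtor2 (0.52), Rps6 (0.16) and Pdcd4 (0.040) reversed between the doses.

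With 1 library left out, treated versus control called 46 to 249 genes (0 to 1 members, 0 to 2 of the list), 20 mg/kg versus control 22 to 470 (0 to 1, 0 to 4), 30 mg/kg versus control 456 to 1563 (1 to 3, 4 to 16) and 30 mg/kg versus 20 mg/kg 321 to 2172 (0 members, 2 to 13 of the list). Treatment by sex called 0 to 14 and treatment by title-number set 0 to 8, with 0 members. The lowest counts came without control replicate 7 over both doses, without replicate 7 at 20 mg/kg in that group and without replicate 4 at 30 mg/kg in both comparisons of that dose, and the highest at 20 mg/kg without control replicate 5. No signal over background is given with RMA values, so dim probe sets can only be judged against array quartiles.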
